A study of Mus musculus with 6 samples.

Results

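Mitophagy is the removal of damaged or surplus mitochondria by autophagy. Control and PGAM5 KD iBMDMs were compared in the expression of 9 genes of this process: the receptor genes Bnip3, Bnip3l, Fkbp8 and Bcl2l13, the prohibitin gene Phb, the PINK1 pathway genes Pink1 and Usp30, and the cargo adaptor genes Optn and Calcoco2. They were taken by symbol in the GENCODE M21 annotation of GRCm38 from the 54532 genes listed for each library, and 7 of the 9 were among the 10540 genes with a mean of at least 1 FPKM (sequenced fragments relative to exon length and library depth) that were tested. The iBMDM line was grown from the bone marrow of mice, differentiated to macrophages and immortalized with retroviruses carrying v-raf and v-myc. Control cells carried a lentiviral control shRNA (shControl) and PGAM5 KD cells a lentiviral shRNA against Pgam5 (shPGAM5). All 6 libraries, 3 per group, came from cells given lipopolysaccharide (LPS) at 100 ng/ml for 4 hours, so no library measured the genes before LPS. The labels name 1 cell line with shControl or shPGAM5, and give neither the sequence nor the number of shRNAs. A difference between the lines, an effect of the shRNA itself and an effect of losing PGAM5 cannot be told apart. No source used here says that replicates were separate cultures or infections, so p-values measure only the spread between these libraries, which may be technical.

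In the pathway led by PINK1, a mitochondrial kinase that is normally imported and cleaved accumulates on damaged mitochondria, phosphorylates ubiquitin and starts the coating of the outer membrane with it, and adaptors such as optineurin and NDP52 (the product of Calcoco2) then link the ubiquitin coat to autophagosomes. USP30, a deubiquitinase of the outer membrane, removes the ubiquitin and opposes this route. The receptor route needs no ubiquitin: BNIP3, NIX (the product of Bnip3l), FKBP8 and BCL2L13 sit in the outer membrane and bind proteins of the ATG8 family directly. Prohibitin (Phb) is a scaffold protein of the inner membrane that forms a complex with its partner PHB2, which can bind ATG8 proteins once the outer membrane is broken. PGAM5, a mitochondrial phosphatase, is known to act on the receptor FUNDC1 and to bear on the stability of PINK1. Bnip3 and Bnip3l are also known as genes induced by low oxygen through the transcription factor HIF-1.

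The promoters of 3 of the 4 genes that were higher in PGAM5 KD cells are shown because they held the 5 letters ACGTG, a core of the sequence that HIF-1 can bind, a choice made with their values known. For Bnip3l, which was also higher, no promoter was available to search. Each is the RefSeq sequence (GRCm38.p6) from 250 bases before to 50 bases after the start of the gene, read 5′ to 3′ on the strand of the gene. Capitals mark ACGTG or GCGTG on either strand, where CACGT and CACGC are the same letters read on the other strand. They lie at chr7:138909457-138909756 on the minus strand for Bnip3, chr8:70527493-70527792 on the plus strand for Fkbp8, and chr11:95666707-95667006 on the plus strand for Phb.
Bnip3: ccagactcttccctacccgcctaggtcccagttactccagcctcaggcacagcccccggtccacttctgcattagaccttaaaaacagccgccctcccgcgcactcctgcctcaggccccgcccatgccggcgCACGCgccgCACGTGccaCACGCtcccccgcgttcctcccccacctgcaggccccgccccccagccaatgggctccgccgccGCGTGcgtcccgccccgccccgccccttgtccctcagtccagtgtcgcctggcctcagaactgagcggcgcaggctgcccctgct
Fkbp8: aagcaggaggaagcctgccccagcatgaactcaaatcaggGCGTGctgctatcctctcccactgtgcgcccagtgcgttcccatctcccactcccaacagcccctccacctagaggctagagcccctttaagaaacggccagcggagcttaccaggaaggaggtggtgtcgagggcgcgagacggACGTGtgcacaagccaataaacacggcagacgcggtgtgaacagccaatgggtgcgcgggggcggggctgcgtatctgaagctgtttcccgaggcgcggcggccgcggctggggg
Phb: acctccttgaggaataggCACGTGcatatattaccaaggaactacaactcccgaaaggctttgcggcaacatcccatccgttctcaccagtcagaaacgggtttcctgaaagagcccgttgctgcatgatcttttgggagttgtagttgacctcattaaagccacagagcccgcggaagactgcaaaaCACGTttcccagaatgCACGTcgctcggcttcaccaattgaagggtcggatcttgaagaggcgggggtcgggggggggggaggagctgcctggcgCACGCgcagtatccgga
Of the 9 genes, 7 matched a RefSeq promoter. Bnip3l and Calcoco2 did not, so they were not searched and are named only. ACGTG was in 3 of the 7, against 19.6% of all 32851 promoters of this length. GCGTG was in 6 of the 7, all but that of Usp30, against 32.4% of all promoters. The 6 letters CACGTG, the E-box form, which reads the same on both strands and holds ACGTG on each, were in the promoters of Bnip3 and Phb and in 7.15% of all promoters. The promoters of Pink1, Bcl2l13 and Optn, of which the first 2 were tested and not called, also held GCGTG. These are matches of letters in a window and not measured binding.

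The 6 libraries held from 18163463 to 24388917 fragments on genes, recovered from FPKM and exon length. Pgam5 (ENSMUSG00000029500), the gene targeted by the shRNA, stood at 17.1, 13.0 and 13.4 FPKM in control cells, against 4.33, 5.75 and 4.53 FPKM in PGAM5 KD cells, and the groups did not overlap. Its mean in PGAM5 KD cells was 0.336 times that in control cells (log2 fold change -1.40, standard error 0.13, adjusted p = 0.000358 from limma). Of 8 macrophage markers, 7 had a mean of at least 1 FPKM and Mertk was listed at 0. Their sum was between 2802 and 2894 FPKM in control libraries and between 2526 and 2544 FPKM in PGAM5 KD libraries, with Csf1r, Cd68 and Lyz2 lower and Adgre1, Itgam, Fcgr1 and Cd14 higher in limma's test, and their part in the results below was not tested. Markers of other cells were at or near 0 in every library: neutrophil markers summed to at most 0.568 FPKM (5 of 7 at 0 throughout, Ly6g and S100a9 among them), fibroblast markers to at most 0.0168 FPKM (4 of 6, Col1a2 and Col3a1 among them) and lymphocyte markers to at most 0.211 FPKM (4 of 7, Cd3e and Ms4a1 among them). Summed over all genes, the FPKM of a library ranged from 304393 to 304889 for control and from 317936 to 324298 for PGAM5 KD cells, a gap that scaling to TPM (the same values set to 1 total in every library) removes. In bulk RNA, fewer cells expressing a gene and less RNA of it per cell cannot be told apart.

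Of the 7 genes tested, the 3 receptor genes Bnip3, Bnip3l and Fkbp8 and the prohibitin gene Phb were higher in PGAM5 KD cells and none was lower, while Bcl2l13, Pink1 and Usp30 did not pass the test. The test was limma's on log2(FPKM + 1), with an adjusted p-value under 0.05 over all genes tested. The share called was 57.1%, against 31.7% of all genes tested (16.8% higher and 14.9% lower). The median log2 fold change of the 7 was 0.20, against 0.013 over all genes tested. Control and PGAM5 KD libraries were fully separated for 6 of the 7, as they were for 47.1% of all genes tested. With the threshold of the study, which also asks for an absolute log2 fold change above 1, only Bnip3 was called of the 7, against 0.787% of all genes tested that passed it as higher. The 4 genes stayed higher under each of the 15 other settings run, which included scaling to TPM and leaving out each library in turn.

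**Figure D1:**
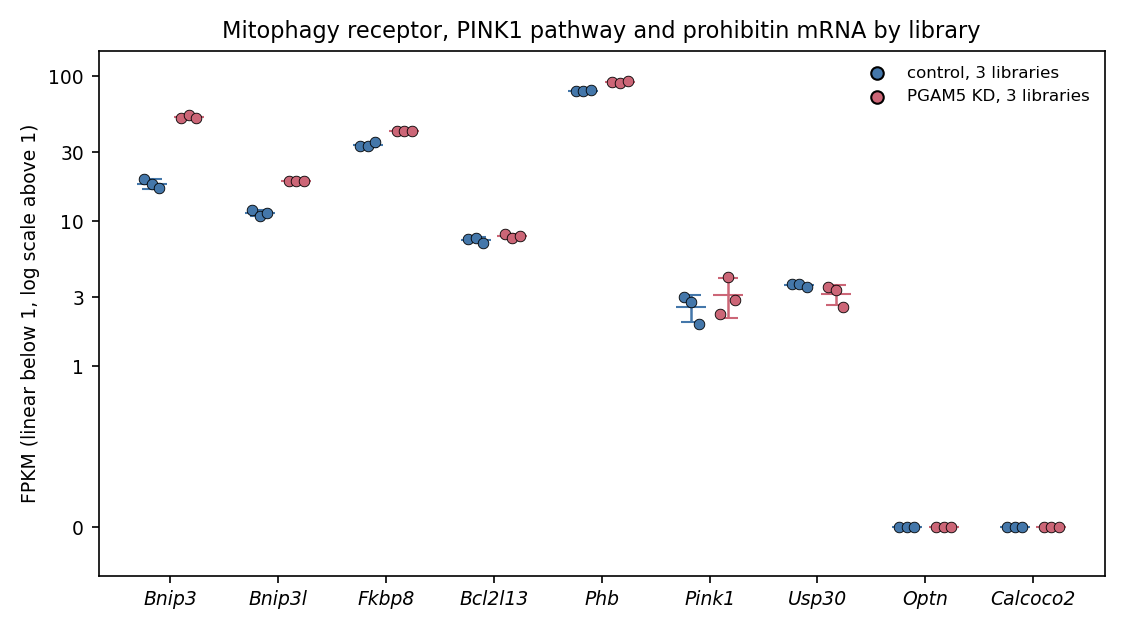
Expression of the 9 genes in each library, in FPKM on an axis that is linear below 1 and logarithmic above it. Each point is 1 library, with 3 control libraries in blue and 3 PGAM5 KD libraries in red, and the bars give the mean and SD of each group. The PGAM5 KD points of Bnip3 sit near 52.5 FPKM, above control points near 18.2 FPKM, the points of Pink1 and Usp30 lie close together, and Optn and Calcoco2 are at 0 in every library.

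The 2 closely related receptor genes of the outer membrane had the largest rises of the 7 tested genes. Bnip3 (ENSMUSG00000078566), whose product is a BH3-only protein and mitophagy receptor, lies on the minus strand at chr7:138890836-138909519. It stood at 19.7, 18.0 and 16.9 FPKM in control cells, against 51.8, 54.4 and 51.2 FPKM in PGAM5 KD cells. The lowest PGAM5 KD library was more than 2 times as high as the highest control library. The mean rose from 18.2 ± 1.39 to 52.5 ± 1.65 FPKM (SD, n = 3 each), a ratio of 2.89. The log2 fold change of FPKM + 1 was 1.48 (standard error 0.06, 95% interval from 1.34 to 1.62, adjusted p = 1.82e-05 from limma), which ranked 30 among the rises of 10540 genes. Between 748 and 2831 fragments per library stood behind these values.

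Bnip3l (ENSMUSG00000022051), which encodes NIX, the receptor known for clearing mitochondria from maturing red blood cells, lies on the minus strand at chr14:66985239-67008877. It stood at 12.0, 10.9 and 11.3 FPKM in control cells, against 18.8, 18.9 and 19.1 FPKM in PGAM5 KD cells. The groups were far apart relative to their spread, and the PGAM5 KD libraries were nearly equal. The mean rose from 11.4 ± 0.555 to 18.9 ± 0.140 FPKM (SD, n = 3 each), 1.66 times the control level. The rise on the log2 scale was 0.69 (standard error 0.05, limma adjusted p = 0.000112), and it ranked 258 among the rises of all genes tested.

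Fkbp8 (ENSMUSG00000019428), which encodes a membrane-anchored member of the FK506-binding protein family that serves as a receptor and binds BCL-2, lies on the plus strand at chr8:70527724-70535328. It stood at 33.2, 32.9 and 35.1 FPKM in control cells, against 41.9, 41.9 and 41.8 FPKM in PGAM5 KD cells. The rise was smaller than those of Bnip3 and Bnip3l, and no library of one group reached the other. In limma its log2 fold change was 0.30 (adjusted p = 0.0013, standard error 0.04), with a ratio of means of 1.24.

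Bcl2l13 (ENSMUSG00000009112), whose product is a BCL-2 family protein regarded as the mammalian counterpart of the yeast receptor Atg32, lies on the plus strand at chr6:120836212-120892842. It stood at 7.58, 7.66 and 7.10 FPKM in control cells, against 8.14, 7.66 and 7.87 FPKM in PGAM5 KD cells. The groups touched without overlapping, since the lowest PGAM5 KD library was above the highest control library by less than the last digit printed. Its log2 fold change of 0.075 did not pass the test (95% interval from -0.050 to 0.20, adjusted p = 0.322 from limma). The interval includes a change the size of that of Phb, 0.20, and not those of Fkbp8 or Bnip3l. Scaled to TPM, the log2 fold change was 0.0059.

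Phb (ENSMUSG00000038845), which encodes a prohibitin of the inner membrane, lies on the plus strand at chr11:95666957-95680773. It stood at 78.9, 78.9 and 80.5 FPKM in control cells, against 90.9, 89.8 and 92.9 FPKM in PGAM5 KD cells. The groups did not overlap, and the ratio of the means was 1.15. In limma the log2 fold change was 0.20 (adjusted p = 0.0032, standard error 0.03), and it became 0.12 when scaled to TPM (adjusted p = 0.0276 from limma). For Bnip3, Bnip3l, Fkbp8, Bcl2l13 and Phb alike, the exact two-sided permutation test gave p = 0.1, the smallest that 3 libraries against 3 allow.

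Of the PINK1 pathway, Pink1 and Usp30 were expressed at low levels and did not pass the test in either direction. Pink1 (ENSMUSG00000028756), on the minus strand at chr4:138313409-138326307, stood at 2.99, 2.76 and 1.95 FPKM in control cells, against 2.28, 4.14 and 2.87 FPKM in PGAM5 KD cells. The libraries of both groups were mixed, with the highest and the lowest value in different groups. The log2 fold change was 0.19 (95% interval from -0.26 to 0.63, adjusted p = 0.488 from limma; exact permutation p = 0.5), and it ran from 0.0097 without PGAM5 KD replicate 2 to 0.33 without PGAM5 KD replicate 1. Between 102 and 201 fragments per library were on Pink1, and a difference within this interval was not detectable at this spread between libraries.

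Usp30 (ENSMUSG00000029592), on the plus strand at chr5:114065461-114124720, stood at 3.67, 3.69 and 3.55 FPKM in control cells, against 3.50, 3.38 and 2.56 FPKM in PGAM5 KD cells. Each PGAM5 KD library was below each control library, but replicate 3 of the PGAM5 KD cells stood apart from the other two, which were close to the control level. The log2 fold change of -0.17 did not pass the test (95% interval from -0.41 to 0.074, adjusted p = 0.256 from limma; exact permutation p = 0.1). It was -0.061 without PGAM5 KD replicate 3 and -0.27 when scaled to TPM, and it did not pass the test under either setting.

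The adaptor genes Optn (ENSMUSG00000026672), on the minus strand at chr2:5020642-5064051, and Calcoco2 (ENSMUSG00000006056), on the minus strand at chr11:96099326-96111964, were listed at 0 in all 6 libraries and were not tested. At these depths, 3 fragments, the limit that a count of 0 allows, would be worth between 0.0328 and 0.0440 FPKM for Optn and between 0.0759 and 0.102 FPKM for Calcoco2, for counting error only. Mrpl53, a gene of the mitochondrial ribosome chosen after its values were seen, was also listed at 0 in all 6 libraries, so a 0 for Optn or Calcoco2 is reported only as listed. In all, 8047 of 21995 protein-coding genes were listed at 0 in every library.

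**Figure D2:**
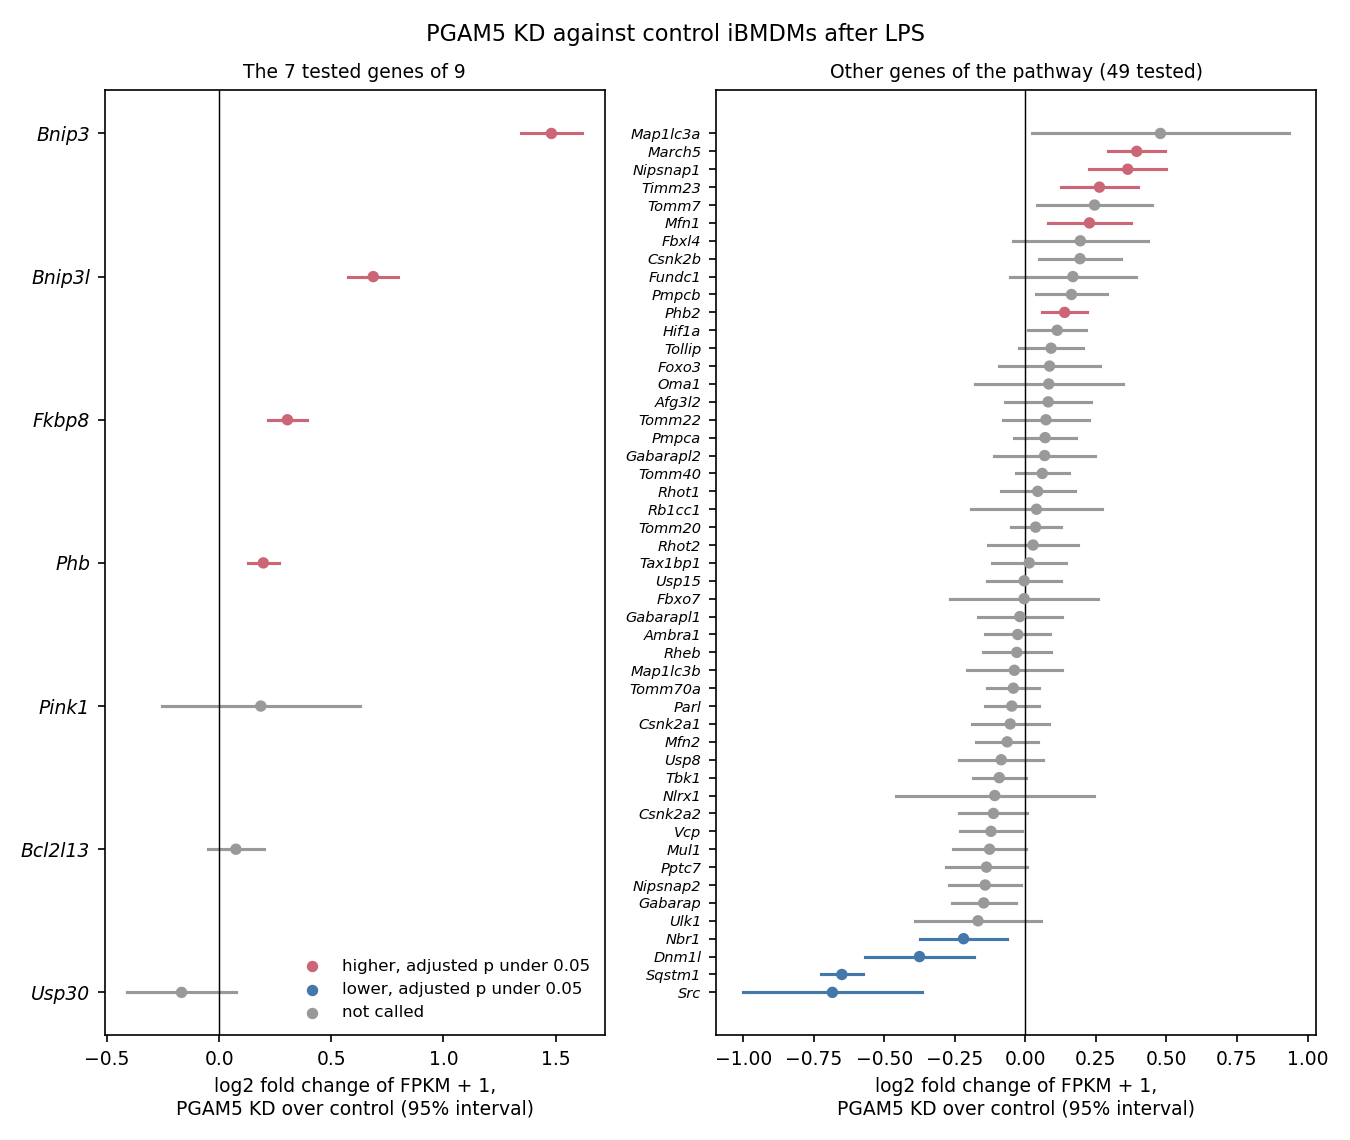
Log2 fold change of FPKM + 1, PGAM5 KD over control, with its 95% interval from limma, for the 7 tested genes of the 9 (left) and for the 49 tested genes of a wider mitophagy list (right). Red marks genes higher and blue genes lower at an adjusted p-value under 0.05, and grey genes that did not pass. Bnip3 at 1.48 lies beyond every gene of the wider list, whose largest called changes are those of March5 (0.39) and Src (-0.68).

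The levels of the genes, compared per length in FPKM, were ordered in the same way in both groups except at 1 place. In control cells the order of mean FPKM was Phb (79.4), Fkbp8 (33.7), Bnip3 (18.2), Bnip3l (11.4), Bcl2l13 (7.44), Usp30 (3.63) and Pink1 (2.57), and the libraries of neighbours in this order did not overlap. In PGAM5 KD cells Bnip3 (52.5) stood above Fkbp8 (41.9), again without overlap, behind Phb (91.2). Below them came Bnip3l (18.9), Bcl2l13 (7.89), Usp30 (3.15) and Pink1 (3.10), and only the libraries of Usp30 and Pink1 overlapped.

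The shares of Bnip3, Bnip3l, Fkbp8 and Bcl2l13 in the sum of these 4 receptor genes did not overlap between the groups, except for Bnip3l. Other receptors of the outer membrane, such as Fundc1, are not in this sum. The FPKM of Bnip3, Bnip3l, Fkbp8 and Bcl2l13 summed to 72.4, 69.4 and 70.4 in the control libraries and to 121, 123 and 120.0 in the PGAM5 KD libraries. Bnip3 made up 25.7% ± 1.58 of this sum in control cells and 43.3% ± 0.818 in PGAM5 KD cells (SD, n = 3 each). The share of Fkbp8 went from 47.7% ± 2.00 to 34.6% ± 0.366 although its own level was higher, and that of Bcl2l13 from 10.5% ± 0.483 to 6.51% ± 0.257. Fkbp8 thus was the most abundant of the 4 in each control library, and Bnip3 in each PGAM5 KD library. The share of Bnip3l was 16.1% ± 0.434 in control and 15.6% ± 0.262 in PGAM5 KD cells, and its libraries overlapped (exact two-sided permutation test, p = 0.2). The shares of Bnip3, Fkbp8 and Bcl2l13 did not overlap between the groups (p = 0.1 for each in the same exact test, the smallest it allows). The 4 shares add up to a fixed total, so these separations are not independent results. The level of Bcl2l13 itself was not lower (7.44 against 7.89 FPKM) and did not pass the test.

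The paralogs Bnip3 and Bnip3l moved by different amounts. Within each library the FPKM of Bnip3 was 1.64, 1.65 and 1.49 times that of Bnip3l in the control libraries, and 2.76, 2.88 and 2.69 times in the PGAM5 KD libraries. The groups were widely separated on this ratio. On the log2(FPKM + 1) scale, the difference between both genes was 0.63 ± 0.08 in control and 1.42 ± 0.05 in PGAM5 KD cells (SD, n = 3 each), so the rise of Bnip3 exceeded that of Bnip3l by 0.79 (exact two-sided permutation test, p = 0.1, the smallest possible). This excess ranged from 0.75 to 0.82 over the 6 fits without 1 library.

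**Figure D3:**
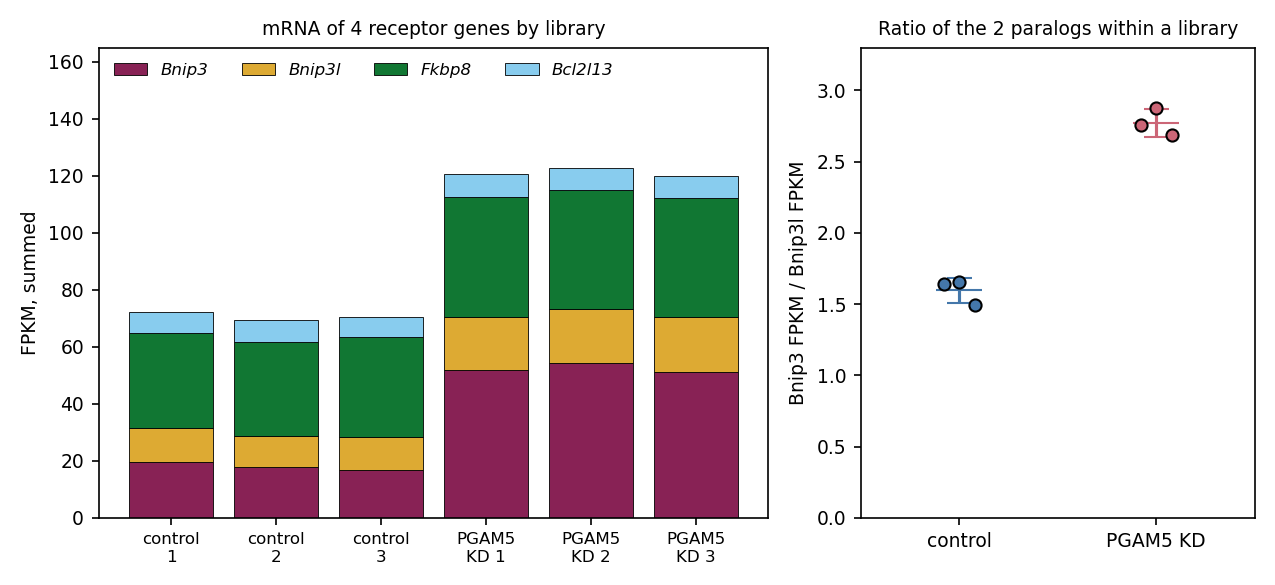
Left, summed FPKM of 4 outer membrane receptor genes, Bnip3, Bnip3l, Fkbp8 and Bcl2l13 in each library, stacked by gene. Right, the ratio of Bnip3 to Bnip3l FPKM within each library, with the mean and SD of 3 libraries per group. The sum goes from 70.7 to 121 FPKM on average, most of the added height is Bnip3, and the ratio goes from 1.60 to 2.77.

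Of 52 further genes of mitophagy, 49 were tested, 5 were higher, 4 were lower and 40 did not pass, a share called of 18.4% against 31.7% of all genes tested. Scaled to TPM, 2 were higher and 12 lower (28.6% called, against 32.0% of all genes), and voom on recovered fragments also called 28.6% (against 36.8%), so neither the share nor the balance of directions of this list was stable. Their median log2 fold change was 0.014, against 0.013 over all genes tested. Of 6 other receptors, 2 were higher and 0 lower, a share called of 33.3% against 31.7% of all genes tested. These were Nipsnap1, whose product gathers on damaged mitochondria (8.88 to 11.7 FPKM, log2 fold change 0.36, adjusted p = 0.0041 from limma), and Phb2, the prohibitin that binds ATG8 proteins (107 to 118 FPKM, 0.14, adjusted p = 0.0199). Nipsnap2, the paralog of Nipsnap1, went from 14.4 to 12.9 FPKM without overlap between the groups and did not pass (-0.14, adjusted p = 0.0853 from limma). Nlrx1 and Ambra1 did not pass either, at -0.11 and -0.027. The call of Phb2 was lost under 6 of 15 other settings, scaling to TPM and leaving out control replicate 2 among them (adjusted p = 0.248 and 0.0629 from limma). Fundc1, the receptor that PGAM5 is known to dephosphorylate and which was chosen after its values were seen, had 7.84, 9.18 and 10.4 FPKM in control and 10.8, 9.73 and 10.5 FPKM in PGAM5 KD libraries. The groups overlapped, and its log2 fold change of 0.17 did not pass the test (adjusted p = 0.222 from limma).

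Among the ubiquitin adaptors and their kinase Tbk1, 0 of 5 tested genes were higher and 2 were lower, against 16.8% and 14.9% of all genes tested. Sqstm1, which encodes the adaptor p62, stood at 272, 265 and 276 FPKM in control cells, against 175, 174 and 167 FPKM in PGAM5 KD cells. No library of one group came near the other, which is -0.65 on the log2 scale (standard error 0.03, limma adjusted p = 2.54e-05), with the same call under all 15 other settings. Nbr1, a relative of p62, was at -0.22 (adjusted p = 0.0404), a call that was lost under 8 of the 15, each of the 6 fits without 1 library included (adjusted p from 0.0568 without control replicate 3 to 0.114 without PGAM5 KD replicate 3). Tax1bp1, Tollip and Tbk1 did not pass, with log2 fold changes of 0.014, 0.091 and -0.092, and Calcoco1 was below the filter.

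In the lists that follow, the share called was between 0% and 25% of the genes tested, against 31.7% of all genes tested. Of 11 genes for the import and cleavage of PINK1, 1 was higher (9.09%), Timm23, the channel of the inner membrane translocase (54.8 to 65.9 FPKM, log2 fold change 0.26, adjusted p = 0.0141 from limma, and 0.0578 when scaled to TPM). The other 10, among them the protease gene Parl and the translocase genes Tomm20 and Tomm40, did not pass, with values from -0.048 to 0.25. Of 8 tested genes of ubiquitin ligases and their substrates 2 were higher (25%), of which March5, a ubiquitin ligase of the outer membrane, rose from 38.0 to 50.3 FPKM (log2 fold change 0.39, adjusted p = 0.00079 from limma). Mfn1, a fusion protein, was also higher (6.83 to 8.16 FPKM, 0.23, adjusted p = 0.0321), but lost its call under 8 of 15 other settings, 5 of which left out 1 library (adjusted p up to 0.0974, without PGAM5 KD replicate 2). Of the deubiquitinase genes Usp8 and Usp15 and of the 5 genes of the ATG8 family, none passed the test, where Map1lc3a had the largest value, 0.48 (adjusted p = 0.103 from limma). Of 12 regulators of the receptors 2 were lower (16.7%), of which Src, a kinase that can phosphorylate FUNDC1, fell from 4.15 to 2.20 FPKM (log2 fold change -0.68, adjusted p = 0.0092 from limma), and Dnm1l, which encodes the fission protein Drp1, from 27.5 to 21.1 FPKM (-0.38, adjusted p = 0.0142, and 0.0502 without control replicate 3). Hif1a was at 0.11 and Foxo3 at 0.086, and neither passed (adjusted p = 0.0925 and 0.433 from limma).

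The profile of Bnip3 over the 6 libraries was nearest to those of Ifit1, Rsad2, Tnfrsf13b, Ifi44 and Ifi44l, by the Euclidean distance between log2(FPKM + 1) values centred on each gene's own mean. The distances were 0.116, 0.196, 0.208, 0.212 and 0.215, with all genes compared over the same 6 libraries and grouping. A small distance requires a similar log2 fold change, which ran from 1.40 (Ifi44) to 1.56 (Tnfrsf13b) for these genes, against 1.48 for Bnip3. Ifit1 went from 8.21 ± 0.352 to 24.1 ± 0.402 FPKM (SD, n = 3 each), and Tnfrsf13b from 0.608 ± 0.0338 to 3.75 ± 0.157 FPKM. This is a description of how alike the values were.

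Some of the genes share sequence or place with others. Of the fragments on Bnip3 and its 4 pseudogenes, between 99.1% and 100% were on Bnip3 itself, and the ratio of PGAM5 KD to control was 2.88 with the pseudogenes added. For Bnip3l, whose pseudogene is Bnip3l-ps, the gene held between 90.2% and 92.7% and the ratio was 1.65 with the pseudogene added, and for Phb, with 11 pseudogenes, it held between 93.5% and 95.3% and the ratio was 1.16. Fyb, a protein-coding gene that these sums leave out, is identical to Phb over 339 bases and held between 4641 and 6434 fragments per library, and with it Phb held between 45.3% and 48.2% of the fragments, so counts within that stretch are uncertain. It is not known whether the libraries kept strand, so exons shared with a gene on the other strand are uncertain. The exons of Bcl2l13 share 628 of their 9089 bases with Bid, a gene on the other strand that went from 49.9 to 44.2 FPKM (log2 fold change -0.17, adjusted p = 0.033 from limma), and those of Usp30 share 329 of 6064 bases with Alkbh2, which went from 6.99 to 8.86 FPKM (0.33, adjusted p = 0.268). Fkbp8 shares 224 of 4529 bases with Kxd1 (0.060, adjusted p = 0.65). Bnip3 shares 504 of 2265 bases with the antisense gene Gm45507, and Pgam5 shares 1378 of 2373 bases with Gm26718, both listed at 0 in every library.

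**Figure D4:**
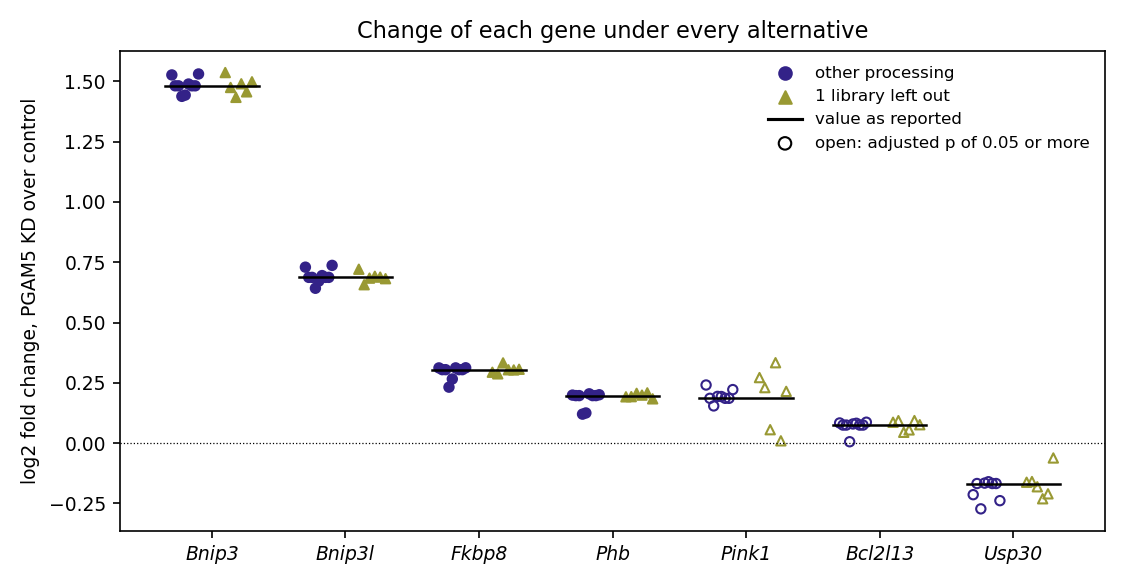
Log2 fold change, PGAM5 KD over control, of the 7 tested genes under every other setting. Circles are other processing choices, triangles are fits without 1 library, filled symbols passed an adjusted p-value of 0.05, and the black line is the value in the text. Bnip3, Bnip3l, Fkbp8 and Phb stay filled and above 0 throughout, and Pink1, which goes from 0.0097 to 0.33 among the triangles, Bcl2l13 and Usp30 are drawn as open symbols.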

How the data were processed

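RNA-seq was analysed for 6 libraries of LPS-treated iBMDMs, 3 control and 3 PGAM5 KD, grouped by the shRNA in their labels. RNA was isolated with a column kit, and poly(A) libraries were made and sequenced by a provider. The authors deposited FPKM per Ensembl gene, 1 table per library. Per the labels, the submitters' processing notes name HISAT2 2.0.5, featureCounts 1.5.0-p3 and mm10. The annotation release is not given in the sources used here. Of 54532 gene IDs, 54495 were in GENCODE M21, which gave symbols, coordinates and exon lengths, and 37 were not. FPKM times exon length gave whole fragments within 0.01 for 96.8% to 97.1% of values, and from these the depth, between 18163463 and 24388917 fragments. Replicates of a group differed by more than sampling noise.

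limma 3.58.1 (R 4.3.3) was run on log2(FPKM + 1) for genes whose FPKM averaged at least 1 (mean-variance trend, two-sided, Benjamini-Hochberg over 10540 genes), which understates the change of low genes. Calls of direction used an adjusted p-value under 0.05, and the threshold of the study, an absolute log2 fold change above 1 as well, is given beside them. Exact two-sided permutation tests were added for single genes and for shares. The fit was tested on simulated data with 200 genes changed by an absolute log2 fold change of 1, which does not cover the smaller changes reported here. The members and lists were chosen with earlier results of these data known, so they are not independent evidence. Named genes are the 9 genes, Pgam5, at most 5 called genes of the wider list in each direction with no overlap between the groups, the 5 genes with the profile nearest to that of a gene past the threshold of the study, overlapping or resembling genes (blastn 2.17.0, at least 85% identity over 200 bases) and markers. Other genes of the wider list named with a value were chosen after their values were seen.

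The alternatives were a pseudocount of 0.1, no filter, a mean FPKM of at least 5, scaling to TPM, quantile normalization, centring on the library median, no trend, fits without each single library, a replicate block, and voom on the recovered fragments. Python 3.11.15 was used with pandas 2.3.3 for the tables and matplotlib 3.10.9 for the figures.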

Additional observations from a re-analysis of the deposited data

How the results depend on the processing

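Bnip3, Bnip3l, Fkbp8 and Phb were higher and 0 of the 7 tested genes lower under all 9 other processing choices and in all 6 fits without 1 library, and the difference between Bnip3 and Bnip3l kept its direction under the 4 processing choices it was run with and in the same 6 fits. With a mean FPKM of at least 5, Pink1 and Usp30 were not tested. Scaled to TPM, the wider mitophagy list had 2 genes higher and 12 lower, against 5 and 4, and all genes had 1088 higher and 2282 lower, so that 32.3% of calls were higher against 52.9% in FPKM. TPM moved the median log2 fold change of all genes from 0.013 to -0.060. Voom on recovered fragments gave 8 genes of the wider list higher. Without 1 library, the genes of that list that were lower numbered from 2, without control replicate 3, to 5, and those higher from 4 to 6. Calls over all genes then numbered from 1211 to 1497 higher and from 1129 to 1361 lower.

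Replicate numbers are shared between the groups, but same-numbered libraries did not deviate together (correlations of -0.0197, 0.0161 and -0.0516), so the numbers were not taken as pairs. With the replicate block, 4 of the 7 genes were higher and 0 lower, the wider list had 6 higher and 3 lower, and all genes had 1440 higher and 1212 lower. Without the filter, 33716 of 54532 genes were at 0 in every library and the adjusted p-values of that fit are unreliable.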
